A study of Mus musculus with 6 samples.

Results

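The genes described here are 89 rows of the expression table that lie in the major histocompatibility complex (MHC) region of mouse chromosome 17, between 33900000 and 37500000, and are not MHC genes by name. They were chosen by their mean level, at least 1 FPKM (fragments per kilobase of gene length, scaled to the depth of the library) over the 6 libraries, leaving out symbols that start with H2-, Hspa, Psm, Rpl or Rps. Of 35275 genes in the table, 308 rows lie in the interval and 117 of these reached the level. Names removed 28 of the 117, of which 23 were H2- genes, and 79 of the remaining 89 are protein coding. Because the members were selected on that measured mean, their levels are given below as a description.

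The libraries are from splenic B cells of C57BL/6 mice aged 6 to 8 weeks, taken on day 8 after an injection of sheep red blood cells, an antigen that drives a T cell-dependent germinal centre response. All mice received the antigen. There were 3 libraries from wild type (WT) mice and 3 from mice with an altered CD40 ligand, CD40LΔ5. The labels name no promoter, Cre driver or pooling, and do not say whether each library is from its own animal. The p-values below therefore measure the spread between these 6 libraries, which may be technical. Values by library are given in the order of the labels' replicate numbers, WT 1 to 3 and then CD40LΔ5 1 to 3.

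Labels and the authors' deposited table of means disagree on the groups. The MUT column of that table equals the mean of the libraries labelled WT 1, WT 2 and CD40LΔ5 2, and its WT column the mean of WT 3, CD40LΔ5 1 and CD40LΔ5 3, with a largest difference of 3.33e-08 FPKM. Only 2 of the 6 libraries have the same place in both. Cd40lg, the altered gene, measured 0.53, 0.43 and 0.20 FPKM in the libraries labelled WT and 0.12, 0.48 and 0.14 FPKM in those labelled CD40LΔ5. Its label groups overlapped, and its table sets did not, with all MUT libraries above all WT libraries. It is a T cell gene, and 6 of 8 tested T cell markers were also higher in the MUT set, so these few reads do not settle which grouping is right. Both comparisons are given, the first by the labels and the second by the sets of the table, and a library is always called by its label. Depth was 24320080 to 27866611 reads, and the B cell marker Cd22 measured 239.7 to 305 FPKM over the libraries. Markers of other cells were present too: the summed level of the macrophage list ran from 142 FPKM in WT 3 to 421 FPKM in WT 1, and that of the neutrophil list from 45.9 FPKM in CD40LΔ5 1 to 594 FPKM in CD40LΔ5 3.

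The MHC region is known for the class I and class II molecules that show peptides to T cells, but it holds many other genes packed between them. Near the class II genes stand Tap1 and Tap2, whose protein products pump peptides into the endoplasmic reticulum, and Tapbp, which encodes tapasin, the protein that holds class I molecules at that pump. The class III stretch carries complement genes, the tumour necrosis factor (TNF) and lymphotoxin genes, and housekeeping genes of chromatin, RNA processing and protein folding. Lymphotoxin made by B cells is known to keep the follicles of the spleen in order.

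The promoter stretches of 4 members, which the results below come back to, are printed here. They are the 250 bases before the start of Tap1 (the pump), Ltb (the member of highest level), Tubb5 (the member of second highest level) and Gm11127 (a member listed at 0 in a pair of libraries), from RefSeq on GRCm38.p6, 5′ to 3′ on the gene's own strand. Capitals mark the match to CCAAT in Tap1 and Tubb5, in Ltb to the kappaB-like motif GGG, any 2 bases, TT, any base and CC, read here on the other strand, and in Gm11127 to the interferon-type motif GAAA, any 2 bases and GAAA.
Tap1, chr17:34187306-34187555, plus strand: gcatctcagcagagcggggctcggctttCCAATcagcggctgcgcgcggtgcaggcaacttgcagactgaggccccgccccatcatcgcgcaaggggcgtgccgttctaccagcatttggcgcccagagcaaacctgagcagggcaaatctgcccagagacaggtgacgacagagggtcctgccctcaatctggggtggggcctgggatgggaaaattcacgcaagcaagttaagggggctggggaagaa
Ltb, chr17:35194257-35194506, plus strand: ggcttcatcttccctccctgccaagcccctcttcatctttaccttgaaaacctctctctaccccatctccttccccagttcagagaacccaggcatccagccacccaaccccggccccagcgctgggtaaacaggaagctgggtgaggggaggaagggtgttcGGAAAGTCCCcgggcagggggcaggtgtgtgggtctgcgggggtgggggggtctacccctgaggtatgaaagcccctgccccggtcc
Tubb5, chr17:35838302-35838551, minus strand: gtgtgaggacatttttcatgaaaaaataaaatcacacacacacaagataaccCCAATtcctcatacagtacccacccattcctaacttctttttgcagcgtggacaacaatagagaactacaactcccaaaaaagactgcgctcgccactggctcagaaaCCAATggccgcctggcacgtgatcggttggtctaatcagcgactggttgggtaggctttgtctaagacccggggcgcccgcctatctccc
Gm11127, chr17:36058372-36058621, minus strand: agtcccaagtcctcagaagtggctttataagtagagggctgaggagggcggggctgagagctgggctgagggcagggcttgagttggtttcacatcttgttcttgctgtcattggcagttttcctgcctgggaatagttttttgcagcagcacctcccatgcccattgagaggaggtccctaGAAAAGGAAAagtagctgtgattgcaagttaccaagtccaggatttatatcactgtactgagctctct

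The stretch of Tap1 held 14 CpG dinucleotides, that of Tubb5 10, that of Ltb 6 and that of Gm11127 1. RefSeq promoter windows were matched for 70 members by symbol, 101 windows in all, against 32536 windows of all genes. The median CpG count was 16 in the members' windows and 6 over all, and the median GC content was 58.4% and 52.4%. CCAAT, searched on both strands like the others, was in 32.7% of the members' windows and in 33.8% of all windows. The kappaB-like motif was in 12.9% of the members' windows and in 4.11% of all, in windows of Atat1, Csnk2b, Gm20506, Ltb, Neu1, Ppp1r18, Ppt2, Prrc2a and Trim26. The interferon-type motif was in 3.96% of the members' windows and in 2.98% of all, in windows of Aif1, Gm11127, Olfr98 and Trim26. A match of letters is no binding site, and genes with several starts count more than once.

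Members spanned mean levels from 1.12 to 408 FPKM with a median of 16.03 FPKM, beside 11.1 FPKM over the 11252 genes of the table that reached 1 FPKM. Of the 89, 23 lay under 5 FPKM, 51 between 5 and 50 FPKM, and 15 at 50 FPKM or more. The highest was Ltb, lymphotoxin beta, which anchors the lymphotoxin heterotrimer in the membrane. Its level was 515, 336 and 386 FPKM in WT and 374, 435 and 400 FPKM in CD40LΔ5, so that the CD40LΔ5 values lay within the range of WT. After it came Tubb5, a beta-tubulin of microtubules, with a mean of 203 FPKM, Clic1, a chloride intracellular channel protein, with 200.2 FPKM, Tapbp with 123 FPKM, and Ddx39b, an RNA helicase of splicing and mRNA export, with 112 FPKM. Just inside the level that chose the members stood Trim10 at 1.12, Ppt2 at 1.28 and BC033916 at 1.31 FPKM. Just outside stood Btnl1 at 0.945, C4b at 0.945 and Olfr754-ps1 at 0.921 FPKM. The complement genes of the region were not members: C2 measured 0.36 FPKM, Cfb 0.02 FPKM, C4a 0.57 FPKM and C4b 0.94 FPKM.

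**Figure D1:**
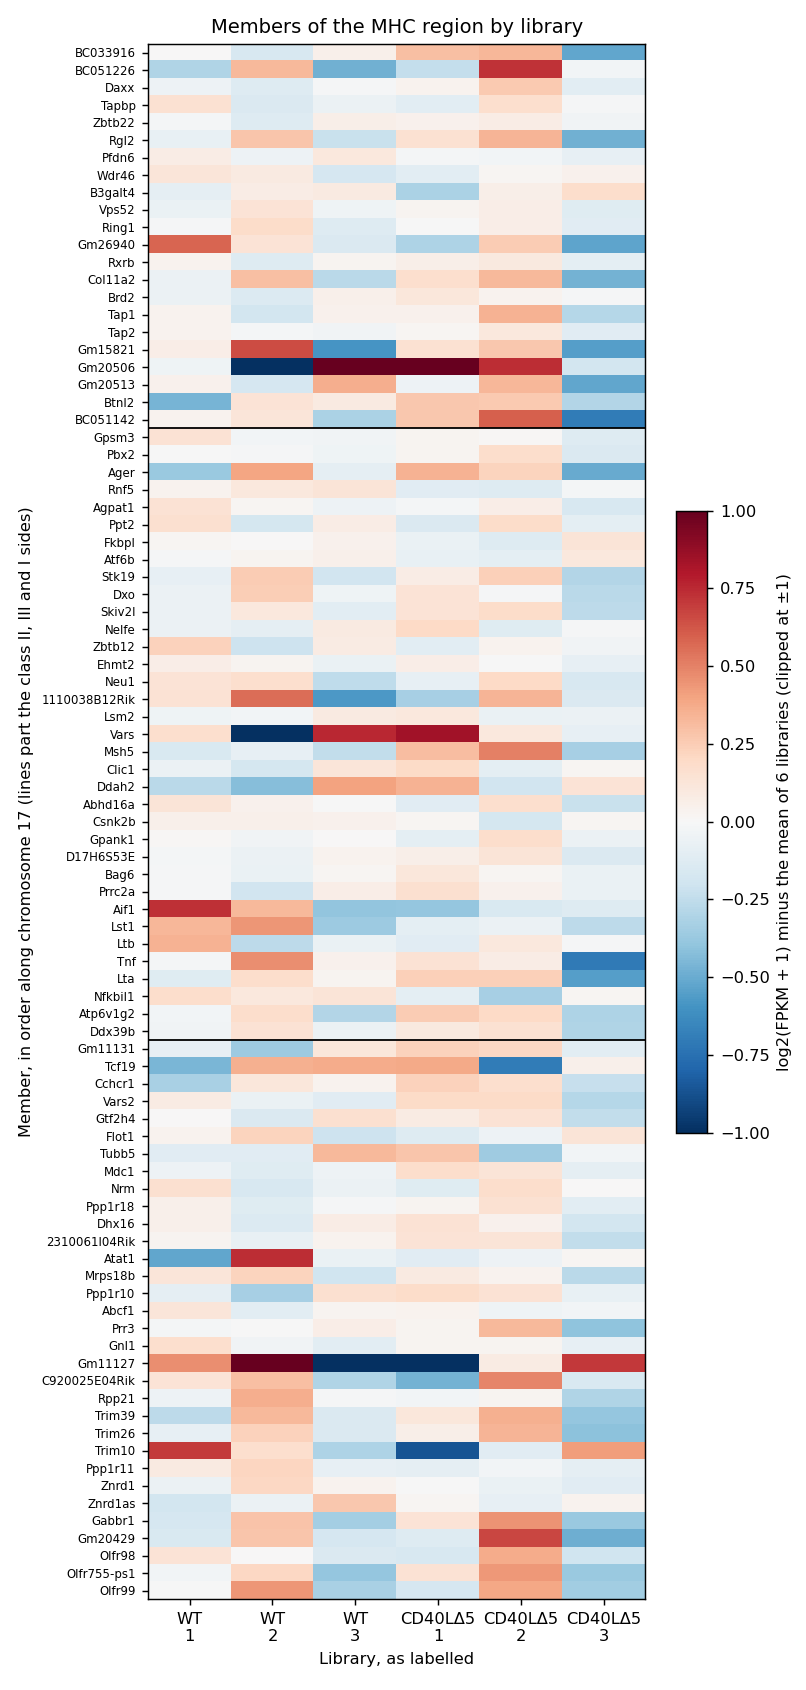
Each row is one of the 89 members in order along chromosome 17, each column a library as labelled, and the colour is log2(FPKM + 1) minus the member's mean over the 6 libraries, clipped at 1 in either direction. Most rows are pale, Vars, Gm20506 and Gm11127 have deep colours in WT 2, WT 3 and CD40LΔ5 1, and the column of CD40LΔ5 3 is blue in many rows.

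Members varied somewhat more between libraries than the tested genes as a whole. The coefficient of variation over the 6 libraries (SD divided by mean) had a median of 14.3%, beside 11.4% over all genes tested. It was under 10% for 36.0% of members and 42.1% of all genes, and over 30% for 21.3% of members and 13.6% of all genes. The steadiest was Ehmt2, the histone methyltransferase G9a, at 62.3, 60.6 and 56.8 FPKM in WT and 62.5, 59.3 and 56.4 FPKM in CD40LΔ5, a coefficient of variation of 4.43%. Next were Bag6, a chaperone of tail-anchored proteins, at 4.71%, and Tap2 at 5.32%. The most variable were Gm11127 at 99.1%, Trim10 at 68.8% and Gm20506 at 68.2%, and among members of 50 FPKM or more it was Vars, the cytosolic valyl-tRNA synthetase, at 47.8%.

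Vars measured 106, 26.6 and 159 FPKM in WT and 169, 101 and 88.5 FPKM in CD40LΔ5. WT 2 stood alone at the bottom, below every other library by more than 3-fold, and WT 3 and CD40LΔ5 1 stood together at the top. These values rest on 2673 reads in WT 2 and on 10208 to 18957 reads in the others, so counting error is small beside the gaps. Vars lies on the plus strand in the class III stretch. Its mean was 97.2 ± 66.8 FPKM in the libraries labelled WT and 119 ± 43.1 FPKM in those labelled CD40LΔ5 (SD, n = 3), a log2 difference of 0.57 ± 0.64 (SE) on the log2(FPKM + 1) scale used for all differences here.

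Gm20506, a predicted gene in the class II stretch, held its extremes in the same libraries, with 11.8, 0.768 and 25.8 FPKM in WT and 33.4, 21.1 and 10.7 FPKM in CD40LΔ5. WT 2 was lowest, on 11 reads, and WT 3 and CD40LΔ5 1 were highest, on 419 and 534 reads. Gm11127, a predicted gene among the class I genes, had the opposite order, with 2.45, 5.57 and 0.00 FPKM in WT and 0.00, 1.65 and 3.07 FPKM in CD40LΔ5. WT 3 and CD40LΔ5 1 held 0 reads, which allows up to 0.0809 and 0.0821 FPKM (3 reads, counting error only), and WT 2 held 182 reads. How reads that match several genes were counted is not given in the sources used here, so values of entries among the class I genes, which are alike in sequence, are uncertain.

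The same order of libraries was present among genes left out by name. H2-K1, a class I gene, measured 727, 66.0 and 1122 FPKM in WT and 1084, 738 and 557 FPKM in CD40LΔ5, with WT 2 again far below the rest. The order was chosen after the values were seen: WT 3 and CD40LΔ5 1 at one end, WT 2 at the other, and the remaining libraries between them. It was present in 10 of 89 members (11.2%), in 12 of the 28 rows left out by name (42.9%), in 9.07% of 474 other genes of chromosome 17 and in 6.85% of 10661 genes elsewhere. With both gaps at 0.2 log2 units or more it was present in 3 members (3.37%), which were Vars, Gm20506 and Gm11127, in 7 of the 28 rows left out by name (25.0%), in 0.844% of the other genes of chromosome 17 and in 0.291% of genes elsewhere. The order cuts across the label groups, while WT 3 and CD40LΔ5 1 both belong to the WT set of the table and WT 2 to the MUT set. Of the 10 members with the order, Clic1, Ddah2 and 1110038B12Rik also had table sets that do not overlap, while Vars, Gm20506 and Gm11127 had sets that do. The order by itself already places WT 3 and CD40LΔ5 1 apart from WT 2, so separate table sets among these members are no further result. No group was formed from the order.

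**Figure D2:**
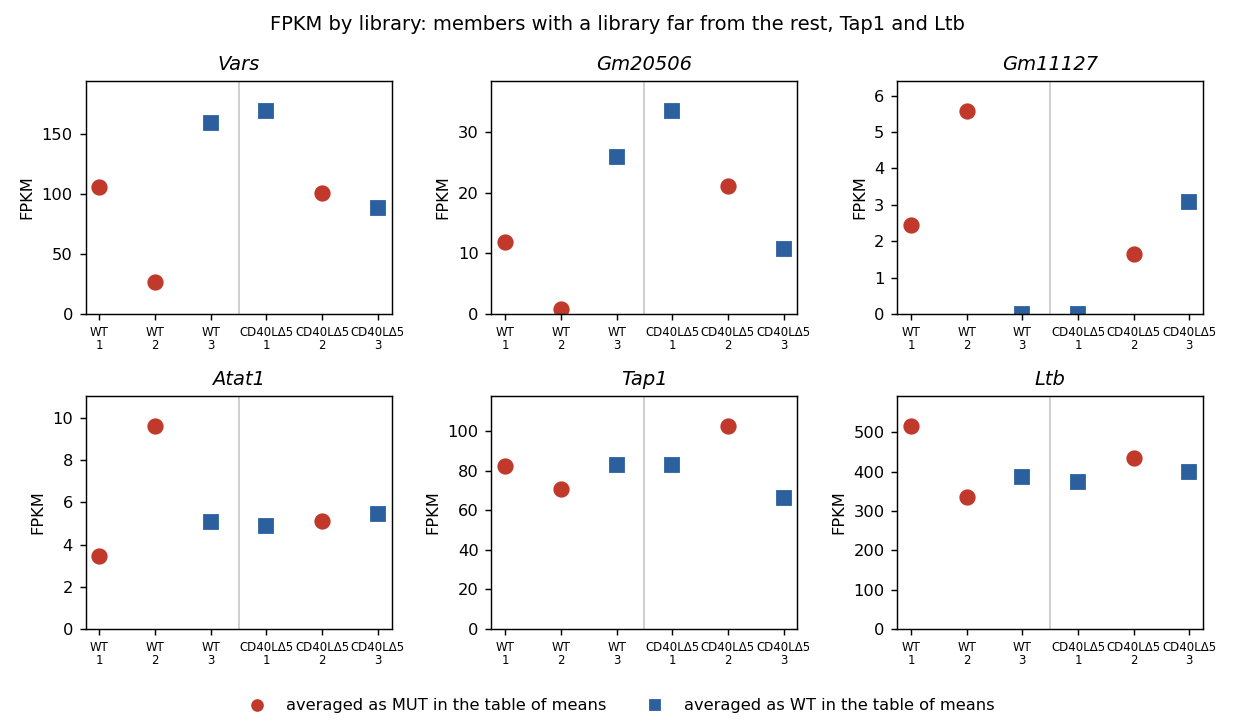
FPKM of 6 members in each library, in the order of the labels, with the colour and shape showing the column of the table of means that a library enters. WT 2 is lowest for Vars (26.6 FPKM) and Gm20506 (0.768 FPKM) and highest for Gm11127 (5.57 FPKM) and Atat1 (9.60 FPKM), while Tap1 and Ltb range within 66.1 to 103 FPKM and 336 to 515 FPKM.

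WT 2 also stood apart at Atat1, which encodes the acetyltransferase of alpha-tubulin. Its level was 3.45, 9.60 and 5.08 FPKM in WT and 4.87, 5.13 and 5.43 FPKM in CD40LΔ5. WT 2 was the only library above 5.43 FPKM, and the CD40LΔ5 libraries lay within the range of WT. Trim10, known in mouse for red cell development, measured 2.25, 1.25 and 0.614 FPKM in WT and 0.0983, 0.843 and 1.66 FPKM in CD40LΔ5. CD40LΔ5 1 was lowest there, and the summed level of the erythroid marker list was lowest in the same library, at 314 FPKM beside 628 to 1188 FPKM in the others. The part of red cells in the Trim10 values was not tested.

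Between the label groups, the MHC region genes were nearly level and none passed the test. Across all 11252 genes, limma with Benjamini-Hochberg adjustment called 0 genes (0%) at an adjusted p under 0.05, and limma voom called 0 too. An unadjusted p under 0.05 was reached by 1.24% of genes (0.915% higher and 0.32% lower), among them 0 of 89 members. Values were higher in the CD40LΔ5 libraries for 42 members and lower for 47, beside 55.5% of all genes higher and 44.5% lower. That split rests on single libraries. Without CD40LΔ5 2 it was 24 higher and 65 lower (27% higher, beside 47.2% of all genes). Without CD40LΔ5 3 it was 59 higher and 30 lower (66.3% higher, beside 64.8% of all genes). The median log2 difference was -0.01 for members and 0.01 for all genes tested. It was -0.06 for members without CD40LΔ5 2, 0.07 without CD40LΔ5 3 and 0.01 without WT 2. Over all genes it was -0.01, 0.05 and 0.02 in the same runs. Groups that do not overlap were found for 3 members (3.37%), all lower, and for 4.29% of all genes, with 2.98% higher and 1.32% lower.

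The 3 members with separate label groups were Rnf5, Nfkbil1 and Csnk2b, all lower in the CD40LΔ5 libraries. Each of these genes overlaps a row on the opposite strand, as do 29 of 89 members in all, and the kit does not mark the strand. Rnf5, a ubiquitin ligase of the endoplasmic reticulum membrane, measured 17.2, 18.1 and 18.5 FPKM in WT and 15.4, 15.3 and 16.5 FPKM in CD40LΔ5, a log2 difference of -0.18 ± 0.08 (SE; limma, unadjusted p = 0.0516, adjusted p = 1). Nfkbil1, an IkappaB-like gene beside Lta, measured 5.55, 5.23 and 5.34 FPKM in WT and 4.42, 3.62 and 4.89 FPKM in CD40LΔ5, a log2 difference of -0.27 ± 0.11 (SE; limma, unadjusted p = 0.0524, adjusted p = 1). Csnk2b, the regulatory subunit of casein kinase 2, measured 88.2, 88.0 and 87.7 FPKM in WT and 86.1, 75.2 and 86.4 FPKM in CD40LΔ5. Its label groups were parted by less than the spread of the CD40LΔ5 libraries, among which CD40LΔ5 2 lay well below the rest. The other members of smallest p on the lower side were Aif1 (log2 difference -0.45), Ppp1r11 (-0.14) and Gm26940 (-0.38). On the higher side they were Mdc1 (0.14), Msh5 (0.32), Gm11131 (0.22), Gm20506 (1.29 ± 0.97 SE, and 0.16 without WT 2) and Ppp1r10 (0.17), and the groups of each of these overlapped. Single libraries moved these values by over 1.5 times. Without WT 1, Aif1 was at -0.19 and Gm26940 at -0.19. Without WT 2, Ppp1r11 was at -0.07, Gm11131 at 0.10 and Ppp1r10 at 0.05. Msh5 was at 0.15 without CD40LΔ5 2 and at 0.57 without CD40LΔ5 3, and Mdc1 at 0.09 without CD40LΔ5 1 and at 0.23 without CD40LΔ5 3. Nfkbil1 was at -0.17 without CD40LΔ5 2.

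With the libraries grouped as in the deposited means, no member passed the test either. limma with Benjamini-Hochberg adjustment called 3 of 11252 genes (0.0267%), of which 0 were members, and the smallest adjusted p of a member was 0.343. An unadjusted p under 0.05 was reached by 13 of 89 members (14.6%) beside 13% of all genes. Of these members 10 were higher (9.39% of all genes) and 3 lower (3.61% of all genes). The sets did not overlap for 15 members (16.9%) and for 16.9% of all genes, with 10 members higher (12.1% of all genes) and 5 lower (4.79% of all genes). Values were higher in the MUT set for 64 members (71.9%) and lower for 25, beside 62% and 38% of all genes, with a median log2 difference of 0.11 beside 0.05 over all genes. With median ratio scaling the split was 53 members higher and 36 lower (59.6% higher, beside 46.5% of all genes), and with GC and gene length trends removed it was 48 and 41. The share of members with a small p or separate sets was thus close to that of the whole table in this comparison.

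**Figure D3:**
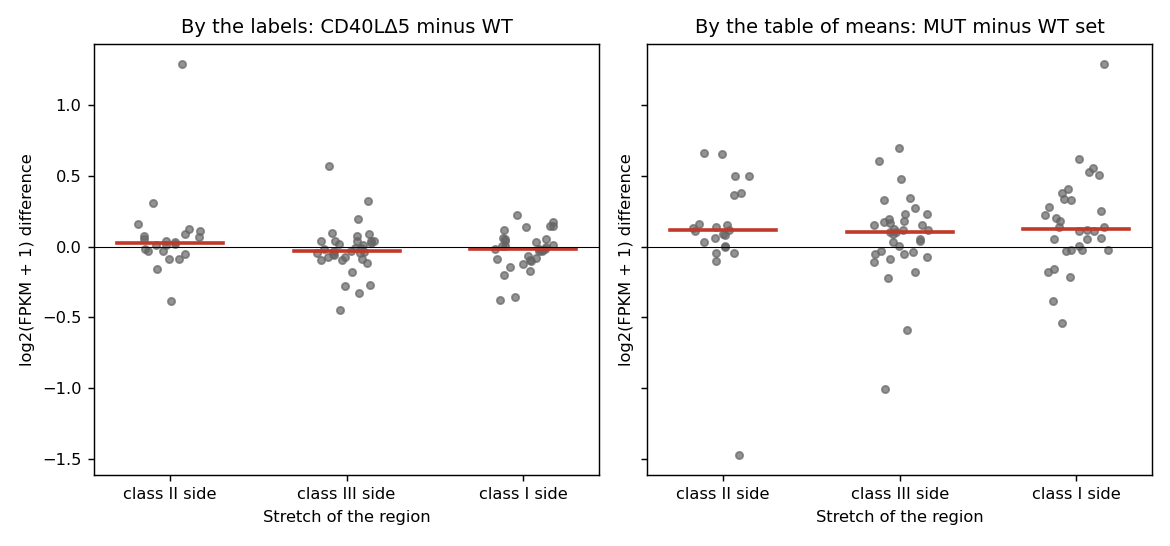
Log2 difference of each member by the labels (left) and by the table's sets (right), one point a member, in 3 stretches of the region, with the median as a red line. Medians are 0.03, -0.03 and -0.02 on the left and 0.12, 0.11 and 0.13 on the right, and Vars (0.57 and -1.01) and Gm20506 (1.29 and -1.47) change side between the panels.

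The members were also counted in 3 stretches of the region, with no test between them. The class II side, from 33905135 to 34460734, held 22 members, the class III side, from 34589806 to 35253707, held 35, and the class I side, from 35377021 to 37280418, held 32. By the labels 14 members were higher and 8 lower on the class II side, 14 and 21 on the class III side, and 14 and 18 on the class I side, and all 3 members whose label groups did not overlap were on the class III side. By the table's sets 17 were higher and 5 lower, then 24 and 11, and 23 and 9. The median coefficient of variation was 14.1%, 12.1% and 17.1% in the same order.

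The peptide loading genes Tap1, Tap2 and Tapbp were expressed in every library and differed little between groups. Tap1 measured 82.7, 70.9 and 82.8 FPKM in WT and 83.0, 103 and 66.1 FPKM in CD40LΔ5. CD40LΔ5 2 was highest and CD40LΔ5 3 lowest, so both ends of the range were in the same label group. Tap2, the other chain of the pump, measured 26.9 to 31.5 FPKM, and Tapbp 111 to 138 FPKM. Their log2 differences were 0.01 to 0.07 by the labels and 0.08 to 0.13 by the table, and the groups of all 3 overlapped in both. The summed level of the interferon response list was also highest in CD40LΔ5 2, at 1199 FPKM beside 406 to 710 FPKM in the other libraries. Ifi27l2a alone gave 736 FPKM of the sum in CD40LΔ5 2. The other libraries did not share the order: WT 2 summed to 710 FPKM with Tap1 at 70.9 FPKM, and CD40LΔ5 1 to 406 FPKM with Tap1 at 83.0 FPKM. All 21 tested genes of the list were higher in the MUT set (median log2 difference 0.67). The part of the interferon genes in the Tap1 values was not tested. Of 7 partners of peptide loading outside the region (such as B2m, the light chain of class I molecules), 3 were higher and 4 lower in either comparison, and none passed.

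Cytokine genes of the class III stretch were led by Ltb, with Lta, the soluble lymphotoxin alpha chain, and Tnf far below it. Lta measured 18.9, 23.5 and 21.1 FPKM in WT and 24.5, 24.5 and 13.8 FPKM in CD40LΔ5. Tnf measured 5.31, 7.85 and 5.59 FPKM in WT and 6.08, 5.72 and 2.91 FPKM in CD40LΔ5. For both genes CD40LΔ5 3 was lowest, while the other CD40LΔ5 libraries lay within or just above the WT range. By the table the log2 difference of Tnf was 0.35 (0.08 without CD40LΔ5 3), and that of Gpsm3, a regulator of G protein signalling in leukocytes, was 0.09. Of the 6 tested genes of this list 1 was higher and 5 lower by the labels, and 4 were higher and 2 lower by the table. Of 9 tested receptors and relatives of TNF outside the region, 5 were higher and 4 lower by the labels, and 7 higher and 2 lower by the table, with none called.

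Of the lists of members by role, that of myeloid, natural killer and platelet genes had the largest median log2 difference by the table, 0.48. All 3 tested genes, Aif1, Lst1 and Ager, were higher in the MUT set, with none called. Ager, at a mean of 1.49 FPKM, had overlapping sets (log2 difference 0.17 ± 0.28 SE). Aif1, which encodes the macrophage protein Iba1, measured 8.06, 5.83 and 3.15 FPKM in WT and 3.15, 3.91 and 3.98 FPKM in CD40LΔ5. WT 1 and WT 2 were above the rest, and the sets of the table overlapped at their edge (log2 difference 0.61 ± 0.22 SE, 5.93 against 3.43 FPKM, and 0.39 without WT 1). Lst1, a leukocyte transcript abundant in myeloid cells, measured 19.8, 21.5 and 11.9 FPKM in WT and 14.5, 14.8 and 12.8 FPKM in CD40LΔ5, and the MUT set lay wholly above the WT set (log2 difference 0.48 ± 0.14 SE). All 14 tested macrophage markers were higher in the MUT set too (median log2 difference 0.68), and all 14 were lower in the CD40LΔ5 libraries by the labels (median -0.31). None of the markers found was at 0 in any library, their summed level was 142 to 231 FPKM in the WT set and 200 to 421 FPKM in the MUT set, and their part in the Aif1 and Lst1 values was not tested. The 9 tested natural killer markers were all higher in the MUT set as well (median log2 difference 0.57), 6 of them with sets that do not overlap. Their summed level was 52.8 to 62.0 FPKM in the MUT set and 24.7 to 36.7 FPKM in the WT set, and their part was not tested either. In bulk samples, fewer cells of a type and less RNA per cell cannot be told apart.

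**Figure D4:**
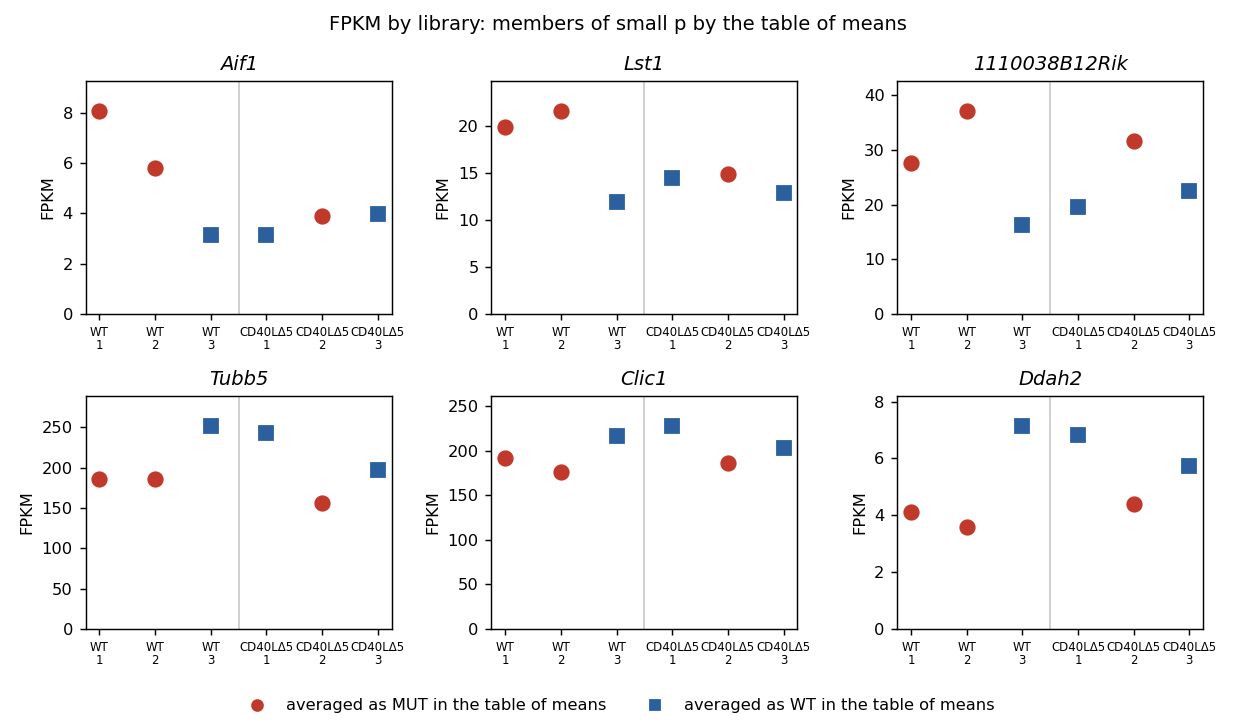
FPKM of 6 members in each library, with colour and shape showing the column of the table of means that a library enters. The MUT set lies above the WT set for Lst1 and 1110038B12Rik and below it for Tubb5, Clic1 and Ddah2, while Aif1 overlaps, with CD40LΔ5 2 at 3.91 FPKM and CD40LΔ5 3 at 3.98 FPKM.

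Of the 10 tested cytoskeleton and membrane genes, 8 were higher and 2 lower by the table, and 6 were higher and 4 lower by the labels. The 2 lower ones by the table are abundant. Tubb5 measured 186, 185 and 251 FPKM in WT and 243, 157 and 197 FPKM in CD40LΔ5, with 176 ± 16.8 FPKM in the MUT set and 231 ± 29.5 FPKM in the WT set (SD, n = 3; log2 difference -0.38 ± 0.13 SE). Clic1 measured 192, 176 and 216 FPKM in WT and 227, 187 and 203 FPKM in CD40LΔ5, with 185 FPKM in the MUT set and 216 FPKM in the WT set (log2 difference -0.22 ± 0.09 SE). By the table the libraries did not overlap for either gene, and by the labels they did. Of 8 other tubulin genes outside the region, 2 were higher and 6 lower by the table, with a median log2 difference of -0.29. The 12 genes of the cycling list were all lower in the MUT set (median -0.61), with summed levels of 209 to 313 FPKM there and 290 to 362 FPKM in the WT set, and their part in these values was not tested.

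Tcf19, a transcription factor gene tied to cell proliferation, had a similar order, at 5.38, 10.2 and 10.4 FPKM in WT and 10.4, 4.42 and 8.12 FPKM in CD40LΔ5. WT 1 and CD40LΔ5 2 were lowest and were also the lowest in the cycling list, at 214 and 209 FPKM. The sets of the table overlapped for Tcf19 (log2 difference -0.54, and -0.85 without WT 2 or -0.32 without CD40LΔ5 2), because WT 2 stood near the top. Of the 15 tested chromatin and transcription members, 9 were higher and 6 lower by the table and 7 were higher and 8 lower by the labels. Brd2, a bromodomain reader of acetylated histones, stayed within 90.6 to 108 FPKM, and Ring1, a ubiquitin ligase of Polycomb complexes, within 17.2 to 21.5 FPKM (log2 difference 0.16 by the table). Of 13 tested partners of these genes outside the region, 6 were higher and 7 lower by the table, and 10 were higher and 3 lower by the labels.

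Metabolic genes held the member of smallest p in the second comparison, Ddah2, which is named for the breakdown of dimethylarginine. It measured 4.12, 3.58 and 7.13 FPKM in WT and 6.83, 4.38 and 5.75 FPKM in CD40LΔ5. The MUT set, at 4.03 ± 0.405 FPKM, lay wholly below the WT set, at 6.57 ± 0.726 FPKM (SD, n = 3). The log2 difference was -0.59 ± 0.11 (SE; limma, unadjusted p = 0.00102, adjusted p = 0.343). On the other side stood Neu1, the lysosomal sialidase, at 20.1, 20.5 and 15.1 FPKM in WT and 17.1, 21.03 and 16.2 FPKM in CD40LΔ5. Its sets did not overlap, at 20.5 and 16.1 FPKM (log2 difference 0.33 ± 0.07 SE). Abhd16a, a phosphatidylserine lipase, measured 33.8 FPKM in the MUT set and 28.7 FPKM in the WT set (log2 difference 0.23). Of the 7 tested genes of the list 6 were higher and 1 was lower by the table, and 2 were higher and 5 lower by the labels. Gpank1, on this list though not known as a metabolic gene, was among the higher ones in both (log2 difference 0.10 by the table and 0.01 by the labels).

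RNA processing and translation genes, 13 tested, gave 7 higher and 6 lower by the table and 4 higher and 9 lower by the labels. Vars had the lowest log2 difference of all members but Gm20506 by the table, -1.01 ± 0.54 (SE), with overlapping sets, and it was -0.37 without WT 2. For Gm20506, -1.47 by the table became -0.39 without that library. Mrps18b, a mitochondrial ribosomal protein gene, had a log2 difference of 0.25, and Wdr46, a nucleolar protein gene, of 0.16. Ddx39b measured 108, 123 and 107 FPKM in WT and 119, 124 and 90.0 FPKM in CD40LΔ5, with CD40LΔ5 3 lowest and overlapping groups. Of 18 partners outside the region 10 were higher and 8 lower by the table, and 9 were higher and 9 lower by the labels.

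The remaining lists were small, with 3 higher and 1 lower by the table among complement neighbours, 4 and 2 among ubiquitin and protein quality genes, 2 and 1 among DNA repair genes, and 2 and 1 among kinases and phosphatases. Stk19, a gene beside C4a, had a log2 difference of 0.27 by the table, and Nelfe, a subunit of the factor that pauses RNA polymerase II, of -0.18. The DNA repair members Msh5, known for meiotic recombination, and Mdc1, a mediator of the DNA damage checkpoint, had log2 differences of 0.18 and -0.02. The ubiquitin ligase genes Trim26 and Trim39 had 0.33 and 0.28, Ppp1r11, an inhibitor of protein phosphatase 1, had 0.18, and Rgl2, an activator of Ral GTPases, had 0.36. Without CD40LΔ5 3 those of Trim26, Trim39 and Rgl2 were 0.21, 0.16 and 0.21. Of 10 tested rows of complement genes outside the region, 9 were higher in the MUT set and 1 was lower. Among the higher rows 2 belong to the same gene, Cr2, and 3, of C1qa, C1qb and C1qc, are also on the macrophage list. None of the genes named in these lists passed the test in either comparison.

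Several members named from the second comparison have no assigned role here. 1110038B12Rik measured 27.6, 37.1 and 16.4 FPKM in WT and 19.5, 31.7 and 22.4 FPKM in CD40LΔ5, so that the MUT set lay wholly above the WT set (log2 difference 0.70 ± 0.14 SE). C920025E04Rik, among the class I genes, measured 15.2, 17.1 and 11.0 FPKM in WT and 9.59, 19.7 and 12.3 FPKM in CD40LΔ5, with the sets again apart (log2 difference 0.62 ± 0.12 SE). The olfactory receptor gene Olfr99 had a log2 difference of 0.55, and Gm26940, on few reads, had 0.65. On the lower side, Znrd1as, named as antisense to the RNA polymerase I subunit gene Znrd1, had -0.22, and Gm20506 had -1.47. Znrd1as and Gm20506 were named by their rank on that side, and neither had a small p (limma, unadjusted p = 0.1116 and 0.1496). The sets of Gm20506 overlapped. The kit does not mark the strand, and 29 of 89 members overlap a row on the opposite strand, so their reads cannot be told apart from those of that row.

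CD40LΔ5 3 was the lowest library for many members. It held the lowest value of 41 of 89 members (46.1%), beside 25.5% of all genes tested, and the highest of 3. CD40LΔ5 2 held the highest value of 30 members (33.7%), beside 30.1% of all genes. The median deviation from the mean of 6 libraries was -0.12 log2 units for members in CD40LΔ5 3 and -0.05 for all genes. By at least 0.25 log2 units below every other library, CD40LΔ5 3 stood apart for 9 members (10.1%), beside 2.39% of all genes. These were BC033916, Rgl2, Gm20513, BC051142, Tnf, Lta, Prr3, Trim26 and Gm20429. The same library had the highest summed level of the neutrophil list, 594 FPKM beside 45.9 to 344 FPKM in the others, and of the erythroid list. Its plasma cell list summed to 4948 FPKM, as in WT 2 (5101 FPKM) and WT 3 (4877 FPKM), beside 1176 to 2161 FPKM in the remaining libraries. The part of these cells in the low values was not tested.

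Trim26 shows this order, at 32.2, 40.2 and 30.7 FPKM in WT and 35.6, 43.5 and 25.4 FPKM in CD40LΔ5. CD40LΔ5 held both the highest and the lowest library. Members were shorter than the rest of the tested genes, with a median gene length of 1899 against 2860 bases, and richer in GC, with a median of 55.7% against 49.5%. With the trends on GC and gene length removed within each library, CD40LΔ5 3 was lowest for 32 members (36.0%) beside 17.9% of all genes. These shares are descriptions, since neighbouring and overlapping genes are not independent.

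**Figure D5:**
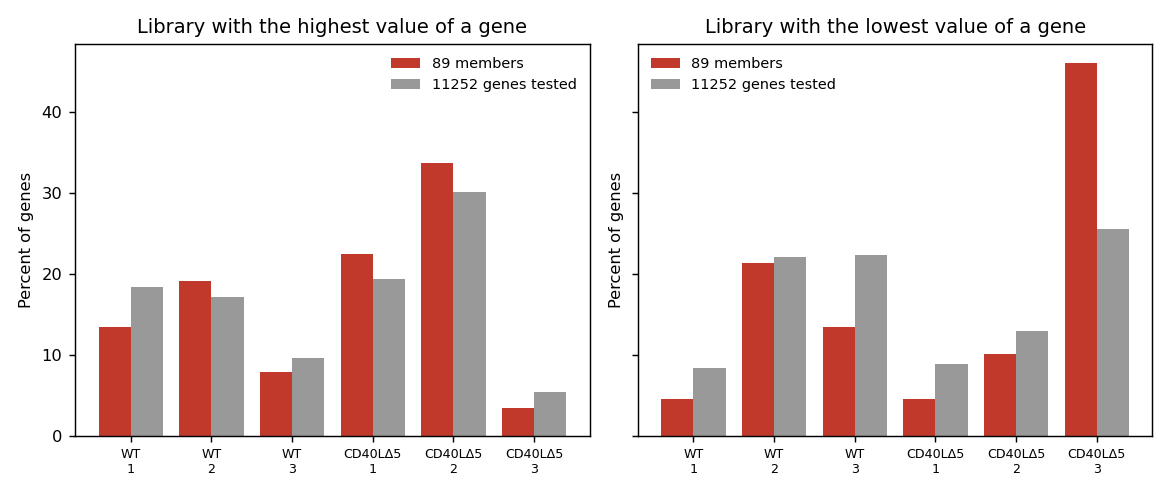
Percent of the 89 members (red) and of the 11252 genes tested (grey) whose highest (left) or lowest (right) FPKM was in each library. CD40LΔ5 3 has the lowest value of 46.1% of members and 25.5% of all genes, and CD40LΔ5 2 the highest of 33.7% and 30.1%.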

How the data were processed

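RNA of 6 libraries of splenic B cells was measured with a kit that does not mark the strand, per the labels' protocols. The deposited FPKM values of each library come from the authors, with gene lengths in bases as another column, and so does a table of FPKM means. STAR, DESeq2 and CASAVA 1.8.2 stand in the submitters' processing notes with no role, beside the build mm9. How reads were counted, and on which annotation, is not given in the sources used here. Gene coordinates match GRCm38: of the 89 members, 88 have an identifier in GENCODE M21 and 76 have its start and end.

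Differences were tested with limma 3.58.1 in R 4.3.3 (lmFit, eBayes with a trend) as two-sided tests of log2(FPKM + 1). The 11252 genes with mean FPKM of 1 or more were tested, and p was adjusted over them by Benjamini-Hochberg, with a threshold of 0.05. The pseudocount of 1 understates changes of low genes. Groups came from the labels, or from the libraries that each column of the table of means averages. Whole reads were recovered for 100% of values (tolerance 0.01 reads), and 1 read equals 0.0359 to 0.0411 FPKM at 1 kb. The deposited unit is FPKM, so no count model was the main test, and limma voom on these reads was an alternative, beside other pseudocounts, filters and scalings, removal of length and GC trends, a replicate block, and leaving out each library.

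Members, gene lists and tests were chosen with earlier results of these data known. Named genes are the 5 members of smallest unadjusted p in each direction by the labels, the 8 by the table with up to 2 per role list, and those of highest level or nearest the level threshold. Genes named for a library that stands apart, for steadiness, or as neighbours in a list were chosen after their values were seen. In a test on simulated data, 50 genes were changed at each of several folds, and 88% of those changed 2-fold were recovered with the label groups and 90% with the table sets. Of those changed 1.5-fold, 32% and 48% were recovered, with 10 and 7 false calls in all, so smaller differences such as those of most members would often be missed.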

Additional observations from a re-analysis of the deposited data

How the results depend on the processing

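No member was called in either comparison under any alternative run. By the labels, members whose groups do not overlap numbered 3, beside 4.29% of all genes. There was 1 with upper quartile scaling, beside 5.39% of all genes, and 1 with the gene length trend removed, beside 3.86%. They numbered 4 to 22 when each library was left out in turn. These were 22 without CD40LΔ5 3 (beside 20.4% of all genes), 11 without WT 3 (11.9%) and 8 without CD40LΔ5 2 (8.48%). Then came 6 without WT 2 (10.2%), 5 without CD40LΔ5 1 (8.57%) and 4 without WT 1 (14.1%). The members' median log2 difference by the labels was -0.06 to 0.07 in the same runs. By the table, genes called numbered 3, and 5 with a pseudocount of 0.1 FPKM, 1 without a filter on low values, 0 at a mean of at least 5 FPKM, 6 with median ratio scaling, 1 with limma voom and 1 to 16 when each library was left out (16 without CD40LΔ5 1, 13 without WT 2, 1 without CD40LΔ5 2). At the mean of at least 5 FPKM, members under 5 FPKM gave no value. The members' median by the table, 0.11, was 0.039 with the gene length trend removed, 0.040 with the GC trend removed and 0.017 with both removed, and 0.05 to 0.13 when each library was left out. Members with separate sets by the table, 15, were 16 to 39 when each library was left out (39 without CD40LΔ5 1, beside 35.1% of all genes, 30 without WT 1 beside 34.2%, 29 without CD40LΔ5 3 beside 30.3% and 24 without WT 2 beside 32.5%), which leaves fewer libraries to overlap. GC trends were added after seeing the data.

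Of 680 values of named genes under an alternative, 674 kept their direction and side of the threshold. By the table, Gpsm3 (0.09) turned to -0.023 with the length trend removed and -0.049 with GC and length trends removed, and Mdc1 (-0.02) turned to 0.014 with both removed. When each library was left out, Mdc1 ranged from -0.10 to 0.059 and Msh5 from -0.027 to 0.38. The cause was not tested. With the replicate number as a block, the label comparison called 0 genes and 0 members, with a median of -0.01 for members and 3 members whose groups do not overlap. The deviations of same-numbered libraries from their group means correlated at -0.38, 0.06 and 0.38, so the numbers do not pair the libraries. No paired analysis was possible for the table sets because they share fewer than 2 numbers. Depth limits members near 1 FPKM, where a value can rest on a few reads.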
